A study of Fragaria vesca with 24 samples.

Results

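The 100 genes described here are those of Fragaria vesca (woodland strawberry) whose transcripts rose more after cold treatment in ‘Alta’ than in ‘NCGR1363’, in crowns and in leaves alike. They were chosen by their measured values. A gene qualified where its level in ‘Alta’, as log2(CPM + 0.5), was higher by 1 or more at 42 d than at 0 h in both tissues and its mean CPM (counts per 1000000 counts of the library total) was 5 or more in both ‘Alta’ 42 d groups. Of 34006 genes in the gene table, 804 met this after 2 genes were left out that the rule sets aside, and these 804 are called cold-induced genes below. For each of them the ‘NCGR1363’ change was subtracted from the ‘Alta’ change in each tissue, and the 100 genes with the largest value of the smaller difference were taken.

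Of the accessions studied, ‘Alta’ originates in northern Norway and survives freezing well, and ‘NCGR1363’, of South American origin, survives it less well. Each genotype is 1 accession propagated as clonal plants from runners, so that a difference between the groups is one between these accessions. Plants were raised for 5 weeks at 20 °C with an 18 h photoperiod. The 8 groups were ‘Alta’ crown, ‘Alta’ leaf, ‘NCGR1363’ crown and ‘NCGR1363’ leaf, each untreated (0 h) and after 42 d at 2 °C, with 3 libraries of RNA in each group, which the study's methods call biological replicates. By the same methods the plants in the cold were also kept under a shorter photoperiod. Untreated plants were taken at 0 h, so that those at 42 d were also older. Cold, day length and plant age cannot be told apart, and cold change below stands for all of them.

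When plants from cold climates spend weeks at low temperatures above freezing, they acclimate, and transcripts for protective proteins, for sugar and lipid metabolism and for regulators of hormone and stress signalling accumulate. In Arabidopsis, much of this response runs through the CBF transcription factors and through abscisic acid (ABA) signalling. The crown is the compressed stem of the strawberry plant and carries its meristems, and regrowth after winter starts from it.

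Total counts were between 12818719 and 18487934 per library. The library labelled ‘Alta’ crown 42 d replicate 3 stood apart. Across 20669 genes its Pearson's r with the other libraries of its group was 0.712 to 0.730, and 0.981 to 0.991 with the ‘Alta’ leaf 0 h libraries, while no other pair within a group was below 0.926. These are correlations across genes, which are not independent replicates. The rule for the 100 genes left this library out, and 23 libraries entered the values below unless it is named. The tissue labels were not checked against defining markers, because the descriptions in the sources used here cover none of the leaf or crown markers that had been listed.

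In ‘Alta’ the 100 genes rose by a median of 3.61 on the log2 scale in crowns and of 3.99 in leaves, which are 12.2-fold and 15.9-fold. In ‘NCGR1363’ the same genes had a median change of 0.60 in crowns and 0.69 in leaves, or 1.52-fold and 1.62-fold. Over the 804 cold-induced genes the medians were 1.501 in ‘Alta’ crowns, 1.98 in ‘Alta’ leaves, 0.92 in ‘NCGR1363’ crowns and 0.98 in ‘NCGR1363’ leaves, and over all genes tested they were -0.15, 0.25, -0.02 and 0.11 in that order. The cold changes and the genotype differences at 0 h and at 42 d are all parts of the selection, so they are described here with no test, and rise and fall name the direction of a difference of means. With TMM-scaled library sizes the medians over all genes tested were -0.02, 0, 0 and -0.01, and those of the 100 genes were 3.72, 3.79, 0.58 and 0.56. In tissue samples, fewer cells of a type and less RNA per cell cannot be told apart. At the limit of the selection, FvH4_5g37600 and FvH4_3g00180 were the last genes taken, with values of 1.823 and 1.819. The next genes, FvH4_2g26570 and FvH4_3g08950, had 1.783 and 1.775 and were not taken.

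**Figure D1:**
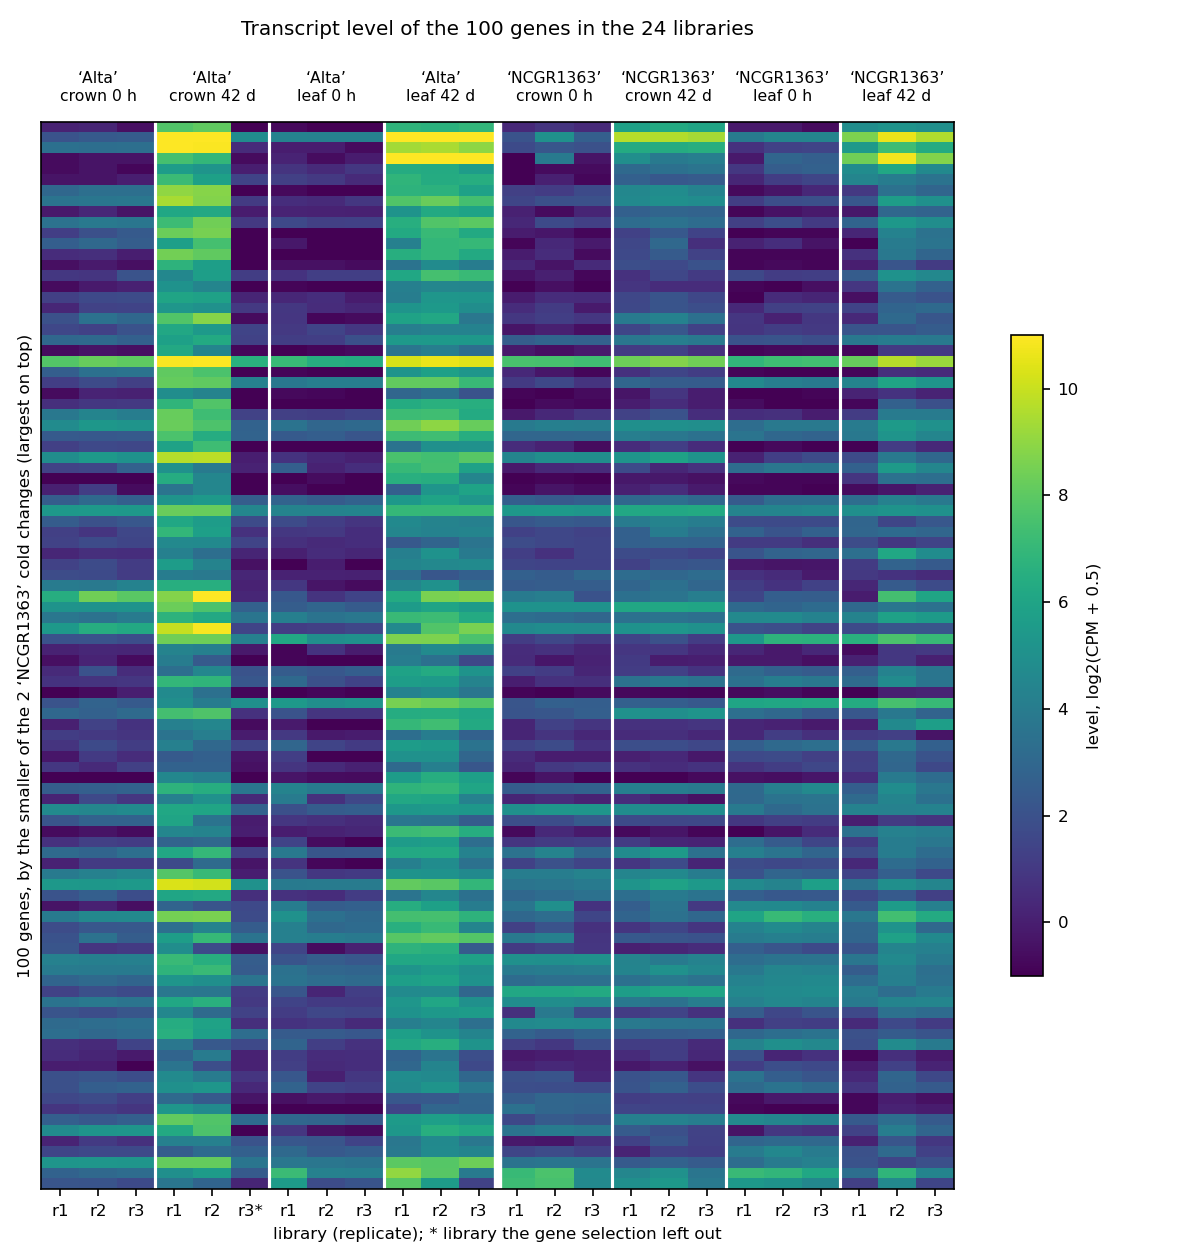
Level of each of the 100 genes as log2(CPM + 0.5) (colour) in the 24 libraries (columns), with the genes ordered by the smaller of their 2 ‘NCGR1363’ cold changes. The 5 ‘Alta’ libraries at 42 d that were used are the brightest columns, and the starred ‘Alta’ crown 42 d library is as dark as the ‘Alta’ leaf 0 h libraries.

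In ‘NCGR1363’ crowns 35 of the 100 genes rose by 1 or more, 57 changed by less than 1 and 8 fell by 1 or more. In ‘NCGR1363’ leaves these counts were 40, 48 and 12. The genes thus were of several kinds. A rise of 1 or more in both ‘NCGR1363’ tissues was seen for 24 genes, which were induced in both accessions and more in ‘Alta’, and a rise of 1 or more in neither tissue for 49 genes. In both tissues 14 genes were below their 0 h level in ‘NCGR1363’, and 3 of them (FvH4_5g35401, FvH4_3g28370 and FvH4_5g01820) by 1 or more. Library by library, 3 genes (FvH4_5g35401, FvH4_3g03410 and FvH4_7g19720) had every ‘Alta’ library used at 42 d above, and every ‘NCGR1363’ library at 42 d below, all those at 0 h in both tissues, as 0.111% of all genes tested had. The selection used these contrasts, and nothing is read from the count.

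**Figure D2:**
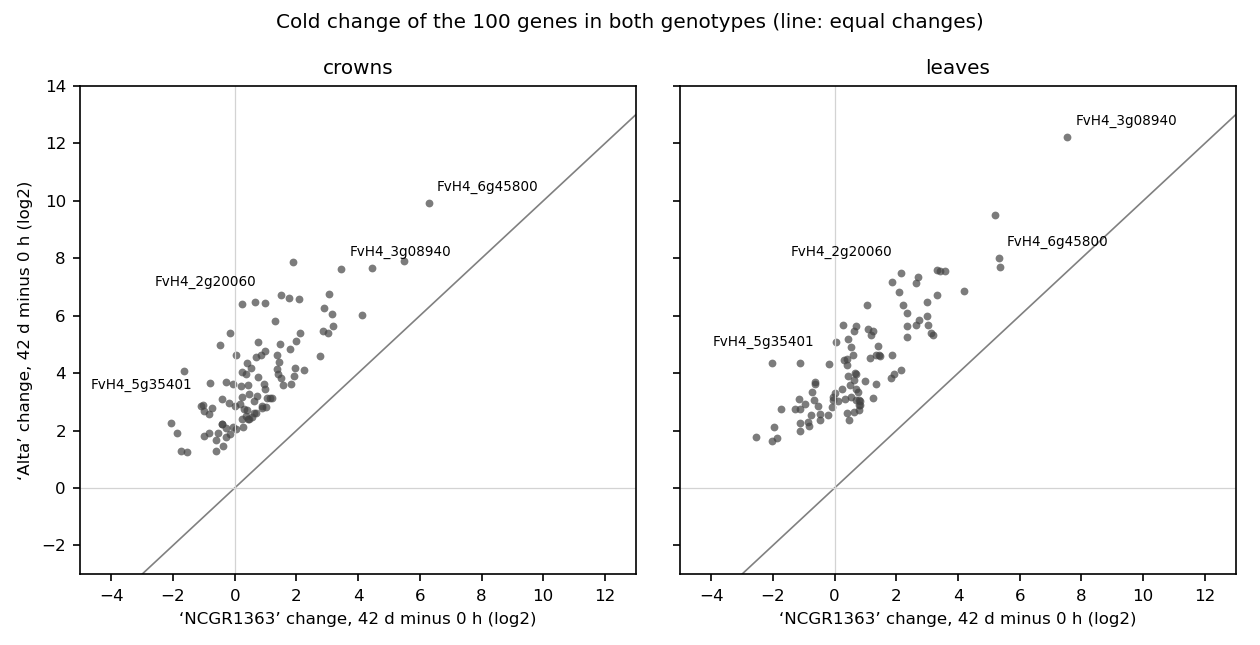
Cold change (log2, 42 d minus 0 h) of the 100 genes (points) in ‘NCGR1363’ (x axis) and ‘Alta’ (y axis), in crowns and in leaves, with the line of equal changes. By the choice of genes all points lie above the line, and the ‘NCGR1363’ changes range from -2.06 to 6.28 in crowns and from -2.55 to 7.54 in leaves.

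FvH4_2g20060 had the largest value of the selection, 5.35. In ‘Alta’ crowns its CPM was 1.06, 1.40 and 1.49 at 0 h and 113 and 217 at 42 d. In ‘Alta’ leaves it had no count in any of the 3 libraries at 0 h and a CPM of 81.7, 96.7 and 90.2 at 42 d. In ‘NCGR1363’ the highest CPM was 0.943 in a crown library and 6.08 in a leaf library, both at 42 d. Every ‘Alta’ library at 42 d was thus above every ‘NCGR1363’ library. The rise was 125-fold in ‘Alta’ crowns and at least 429.6-fold in ‘Alta’ leaves, counted against a floor of 3 counts per library. In ‘NCGR1363’ crowns it was 9.26-fold, with an exact 95% interval of 2.83 to 46.9 that covers counting error only, as do all intervals here.

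FvH4_7g13060 and FvH4_7g13080 follow each other directly in the order of the gene IDs and were alike in level. FvH4_7g13060 had a CPM between 0.498 and 1.05 in ‘Alta’ crowns at 0 h and of 351 and 265 at 42 d. FvH4_7g13080 had 1.85, 3.36 and 4.76 and then 320.4 and 374. Neither had a count in any ‘Alta’ leaf library at 0 h, and their CPM at 42 d was between 76.7 and 136. The leaf rise was at least 463.5-fold for FvH4_7g13060 and at least 464.6-fold for FvH4_7g13080. In ‘NCGR1363’ at 42 d both genes were below every ‘Alta’ library of that time, with a CPM of 2.02 to 4.93 in crowns and of 0.713 to 19.2 in leaves.

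FvH4_3g08920 and FvH4_3g08940 lie 2 places apart on chromosome 3 and differed in abundance. FvH4_3g08920 was at a CPM of 10.3 to 25.9 in the ‘Alta’ libraries at 42 d and at 0.658 or below in all 12 ‘NCGR1363’ libraries. FvH4_3g08940 was among the most abundant transcripts of the set. Its CPM in ‘Alta’ leaves was 0.651, 0.155 and 0.430 at 0 h and 4611, 4772 and 3441 at 42 d, and in ‘NCGR1363’ leaves it was 0.379, 6.95 and 5.78 and then 340.2, 1768 and 435.2. The ‘Alta’ leaves at 42 d were above all ‘NCGR1363’ leaves, although FvH4_3g08940 rose in both accessions, by 12.22 and by 7.54 on the log2 scale. In crowns its CPM at 42 d was 173 and 121 in ‘Alta’ and 29.8, 14.2 and 16.9 in ‘NCGR1363’, where replicate 2 already had 14.8 at 0 h and the others 0.278 or below. FvH4_3g08950, the next ID, stood just outside the limit.

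FvH4_2g21430 had a higher mean CPM in crowns than in leaves in both accessions and at both times. Its CPM rose from 43.1, 89.6 and 74.2 to 989.8 and 1894 in ‘Alta’ crowns. In ‘NCGR1363’ crowns it was 25.2, 27.8 and 26.8 at 0 h and 33.7, 39.2 and 32.9 at 42 d, a change of 0.40. In ‘Alta’ leaves the 42 d libraries were far apart, at 24.2, 213 and 381, all above the 0 h values of 1.66 to 2.43. FvH4_5g03560 was likewise highest in ‘Alta’ crowns at 42 d, with 28.8 to 43.2 in ‘Alta’ crowns at 0 h and 806 and 865 at 42 d, against 35.7 to 59.5 in ‘NCGR1363’ crowns at 42 d. FvH4_7g23590 was at 1.91 to 2.59 and then at 58.9 and 153 in ‘Alta’ crowns, and did not pass 1.81 in any ‘NCGR1363’ library.

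FvH4_5g35401 moved in opposite directions in the 2 accessions. In ‘Alta’ its CPM rose from 38.2, 38.8 and 37.95 to 283 and 283 in crowns, and from 13.1, 12.7 and 11.3 to 248, 229.8 and 326 in leaves. In ‘NCGR1363’ it fell from 11.3, 12.3 and 11.9 to 4.69, 6.31 and 4.97 in crowns, and from 9.20, 15.7 and 18.9 to 3.64, 2.37 and 3.34 in leaves. No library at 42 d overlapped with those at 0 h of the same group, in either direction. FvH4_3g28370 had the same directions of its means, but its libraries overlapped. It was at 144, 18.5 and 18.0 in ‘Alta’ leaves at 0 h and at 538, 234 and 14.8 at 42 d, and at 134, 196 and 25.9 and then 22.3, 32.8 and 12.1 in ‘NCGR1363’ crowns. Only in ‘Alta’ crowns, with 6.40 to 8.88 and then 31.3 and 48.1, were its 0 h and 42 d libraries apart. FvH4_3g17480 rose clearly in ‘Alta’ leaves, from 13.7 to 18.2 at 0 h to 223 to 281 at 42 d, and its ‘NCGR1363’ leaves went from 15.3 to 17.5 at 0 h to 7.06, 58.8 and 25.4, on both sides of the 0 h values.

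Of the other genes among the 20 with the largest values, FvH4_6g43600 had mean changes of 0.23 in crowns and 0.30 in leaves of ‘NCGR1363’, against 4.03 and 4.46 in ‘Alta’. FvH4_7g32860, FvH4_6g10770, FvH4_6g44700 and FvH4_3g21550 had a lower mean in ‘NCGR1363’ leaves at 42 d than at 0 h, with changes of -0.18, -0.74, -0.67 and -1.12. FvH4_1g00421 fell in ‘NCGR1363’ crowns, from 11.8 to 15.6 at 0 h to 4.87, 3.34 and 2.08 at 42 d, and rose in its leaves, by 2.34. FvH4_1g13550 and FvH4_1g00340 had no count in any ‘Alta’ crown library at 0 h, and rose there at least 99.0-fold and at least 262-fold. FvH4_6g39840 rose in ‘Alta’ leaves from at most 0.415 to 125, 157 and 77.8, and in ‘NCGR1363’ leaves it went from at most 0.703 to 0.571, 25.7 and 51.9.

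**Figure D3:**
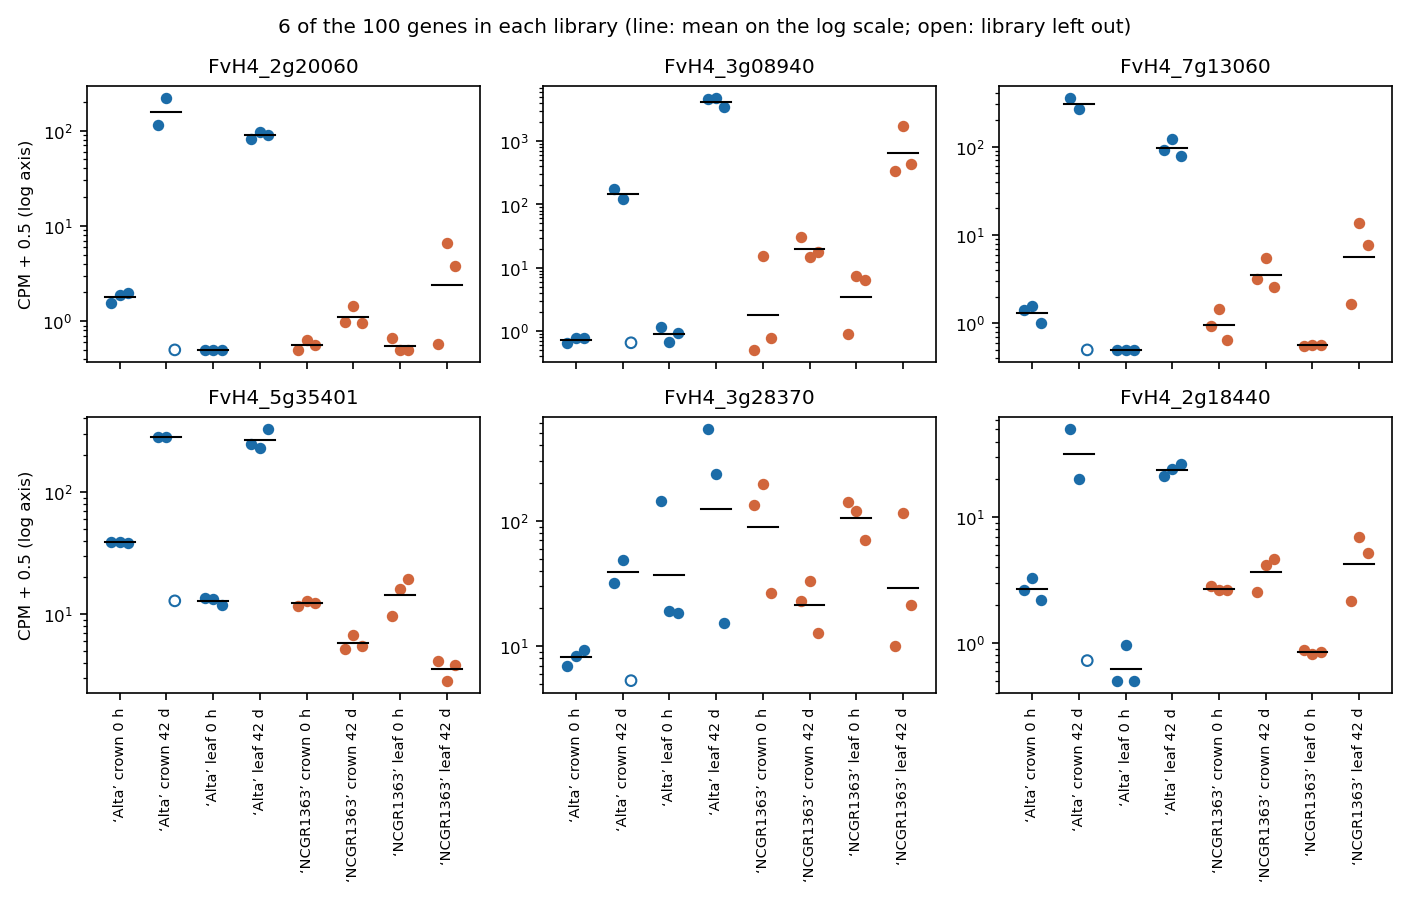
CPM + 0.5 (log axis) of 6 of the 100 genes in each library (points), by group, with the mean on the log scale (line) and the library left out by the selection as an open point. FvH4_2g20060, FvH4_7g13060 and FvH4_5g35401 have no overlap of ‘Alta’ and ‘NCGR1363’ at 42 d in either tissue, while the ‘Alta’ leaf libraries of FvH4_3g28370 at 42 d run from 14.8 to 538.

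The 3 most abundant genes in ‘Alta’ crowns at 42 d were named after their values were seen. FvH4_6g45800 had a mean CPM of 4889 in ‘Alta’ crowns and 5052 in ‘Alta’ leaves at 42 d, and it also rose in ‘NCGR1363’, by 6.28 in crowns and 5.32 in leaves. FvH4_2g26000 was at 1931 and 2573 in ‘Alta’ crowns and FvH4_4g21560 at 2342 and 1951. The 100 genes together held between 0.0452% and 0.144% of the counts in the libraries at 0 h. At 42 d their share was 1.60% to 2.57% in ‘Alta’ and 0.177% to 0.666% in ‘NCGR1363’. FvH4_6g45800 alone took 19.4% to 28.3% of the counts of the set in the ‘Alta’ libraries at 42 d. Without the 3 most abundant genes of each library, the others still held 0.659% to 1.48% in ‘Alta’ and 0.0739% to 0.250% in ‘NCGR1363’.

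Transcripts of 2 of the 100 genes carry a description in the study's list of 896 genes in the interval of its freezing tolerance QTL (quantitative trait locus) on chromosome 2, and the other 98 are given by their IDs. FvH4_2g18440 is described as a ninja-family protein AFP2-like. In Arabidopsis, AFP proteins bind the transcription factor ABI5 and dampen ABA signalling. Its CPM in ‘Alta’ crowns was 2.11, 2.80 and 1.71 at 0 h and 49.8 and 19.8 at 42 d, and in ‘Alta’ leaves it was 0, 0.466 and 0 and then 20.7, 23.6 and 25.9. In ‘NCGR1363’ crowns it stayed between 2.02 and 4.16 over both times, and in leaves it went from 0.313 to 0.379 at 0 h to 1.64, 6.49 and 4.71. Of the 2 other genes with an ABA or protein phosphatase 2C description in that list that passed the filter on low counts, FvH4_2g15570 (probable protein phosphatase 2C 46) changed by -0.60 in ‘Alta’ crowns and 0.23 in ‘Alta’ leaves, and FvH4_2g16790 (probable protein phosphatase 2C 27) by -0.20 and 1.05. Neither rose by 1 or more in both ‘Alta’ tissues. Among all 34006 genes, such a rise was seen for 988, so nothing is read from its absence in 2 genes.

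FvH4_2g16190 is described as endochitinase 2-like. Chitinases cleave chitin of fungal cell walls, and some plant chitinases accumulate in overwintering tissue of cereals. Its CPM was 3.50, 10.5 and 7.61 and then 214 and 449.98 in ‘Alta’ crowns, and 1.36, 0.0776 and 0.143 and then 60.2, 72.7 and 12.96 in ‘Alta’ leaves. In ‘NCGR1363’ crowns it rose too, from 1.39 to 1.80 at 0 h to 15.0, 19.3 and 10.3, and in leaves from 0.564 to 1.43 to 0.785, 8.18 and 4.11, where the libraries overlap with 0 h. None of the 8 other defence genes of that list that passed the filter rose by 1 or more in both ‘Alta’ tissues. All 8 are described as resistance proteins. The genes described as pathogenesis-related or thaumatin-like did not pass the filter, so the 8 are no comparison for a chitinase. Since such a rise was seen for only 988 of all 34006 genes, nothing is read from its absence in these 8. No gene of the set carried a description of a dehydrin, a CBF factor, a sugar or lipid enzyme or a heat shock protein, which says nothing of the genes without one. Of the 896 genes of the interval, 22 were among the 804 cold-induced genes.

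At 42 d every ‘Alta’ library was above every ‘NCGR1363’ library for 95 of the 100 genes in crowns and for 83 in leaves, and for 82 in both. Over all genes tested this order held for 25.2% in crowns and 21.9% in leaves. Since the selection used this contrast, nothing is read from these counts. In crowns FvH4_3g03410 and FvH4_5g01820 had a lower mean in ‘Alta’ than in ‘NCGR1363’ at 42 d, and in leaves FvH4_7g26070 did.

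Before the cold treatment the accessions differed in these genes as well, and these values were part of the selection too. In leaves at 0 h 88 genes had a lower mean in ‘Alta’, 35 of them by 1 or more, and the median difference was -0.66. In crowns 40 had a lower mean in ‘Alta’, and the median difference was 0.24. Over the 804 cold-induced genes the medians were -0.23 in leaves and 0.27 in crowns, and over all genes tested -0.05 and -0.02. A higher mean in ‘Alta’ leaves was seen for 12 of the 100 genes, 235 of the 804 and 8762 of the 20669 genes tested. For crowns these counts were 60, 528 and 9927. Every ‘NCGR1363’ library was above every ‘Alta’ library for 36 genes in leaves (24% over all genes tested) and for 18 in crowns (35.2%), and the reverse held for 3 genes in leaves (15.1%) and 31 in crowns (33%). At 42 d the difference was larger in size than at 0 h for 95 genes in crowns, for 88 in leaves and for 85 in both. FvH4_3g03410 was an exception, with a CPM of 2.05 to 3.36 in ‘Alta’ crowns and 70.5 to 76.9 in ‘NCGR1363’ crowns at 0 h, and of 12.4 to 13.2 and 51.1 to 64.8 at 42 d.

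The ‘NCGR1363’ leaf libraries at 42 d did not agree in these genes. The median level of the 100 genes was 1.83 in replicate 1, 3.85 in replicate 2 and 3.15 in replicate 3, as log2(CPM + 0.5), where the ‘NCGR1363’ leaf libraries at 0 h had 1.80 to 2.00. Replicate 2 was the highest of the 3 libraries for 86 genes and replicate 1 the lowest for 87. Over the 804 cold-induced genes these shares were 58.7% and 57.2%, and over all genes tested 27.0% and 24.2%. The median standard deviation within the group was 0.88 for the 100 genes and 0.28 for all genes tested, and in the other 7 groups it was 0.26 to 0.55 for the 100 genes. FvH4_7g13080, with 0.713, 19.2 and 11.1, and FvH4_1g13550, with 0.999, 14.5 and 9.10, show the order in single genes. Replicate 1 was above all 0 h libraries for 40 genes, within their range for 21 and below it for 39, and no share over other genes is given. Its median change over the 804 cold-induced genes was 0.77, against 1.12 in replicate 2 and 1.01 in replicate 3. The median change in ‘NCGR1363’ leaves was 1.09 without replicate 1 and 0.45 without replicate 2. With replicate 1 left out, 37 genes had a rise of 1 or more in neither ‘NCGR1363’ tissue, against 49. Replicate 2 was below every ‘Alta’ leaf library at 42 d for 83 genes. The selection used the leaf contrast of the accessions, so nothing is read from that count.

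**Figure D4:**
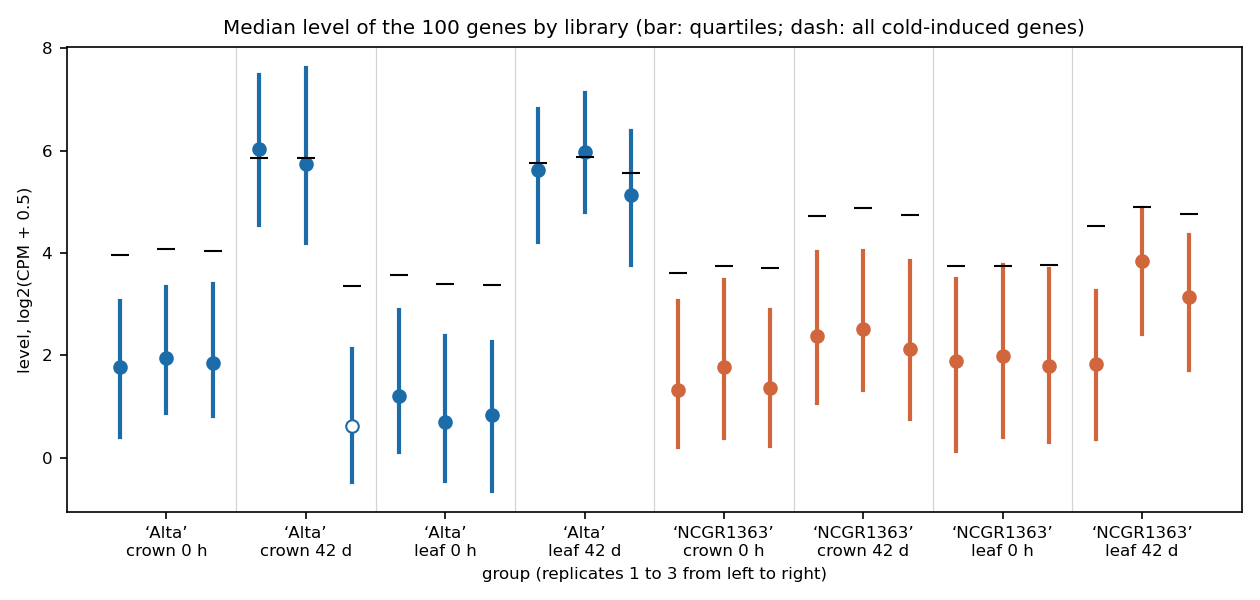
Median (point) and quartiles (bar) of the level of the 100 genes, as log2(CPM + 0.5), in each of the 24 libraries, with the median of the 804 cold-induced genes as a dash. The ‘Alta’ libraries at 42 d lie between 5.14 and 6.04, except for the open point of the library left out at 0.62, and the 3 ‘NCGR1363’ leaf libraries at 42 d are spread from 1.83 to 3.85.

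The library that the selection left out gives values that did not enter the choice of the genes. The libraries it is set against did enter it, and the genes were chosen to be higher there at 42 d than at 0 h. Nothing about the genes is therefore read from the counts that follow. In the library left out, the values of 98 of the 100 genes were below both other libraries of ‘Alta’ crowns at 42 d, 95 of them by 1 or more. Its level was nearest to the ‘Alta’ leaf 0 h mean for 80 genes, to the ‘Alta’ crown 0 h mean for 19 and to the ‘Alta’ crown 42 d mean for 1. FvH4_3g08940 had a CPM of 0.148 in this library and FvH4_6g45800 one of 28.0. The median distance of the 100 genes was 0.23 from the ‘Alta’ leaf 0 h mean and 4.66 from the mean of its own group. With this library included, the median ‘Alta’ crown change was 2.07, and 59 of the 100 genes were among those the rule would take. Every ‘Alta’ crown library at 42 d was then above every ‘NCGR1363’ one for 13 genes.

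The difference between crowns and leaves was not part of the selection, although the levels come from the same libraries, and was tested with edgeR within each accession and time. In ‘Alta’ at 0 h, 92 of the 100 genes passed the filter on low counts. Of these, 38 were higher in crowns (41.3%, against 37.1% of all genes tested) and 27 in leaves (29.3%, against 36%). Of the cold-induced genes 40.2% and 34.3% were. A gene that passed the filter only through the tissue where it is high had to differ, and this held for 15 of the 38 and 5 of the 27. Of all genes called, it held for 20.2% of those higher in crowns and 9.72% of those higher in leaves. No FDR is given for such genes. Folds between tissues are ratios of mean CPM, and the TMM scaling of the edgeR fit shifts crown minus leaf by -0.68 on the log2 scale in ‘Alta’ and -0.62 in ‘NCGR1363’ at 0 h, and by -0.08 and -0.34 at 42 d. FvH4_7g13080, FvH4_7g23590 and FvH4_4g05050 were the genes with the largest fitted difference towards crowns. FvH4_7g13080 was at least 16.0-fold higher in crowns and FvH4_7g23590 at least 11.1-fold, since neither had a leaf count. FvH4_4g05050 had 1 leaf count and a CPM of 5.54 to 11.2 in crowns, a ratio of 456 with an exact 95% interval of 69.6 to 15450. All of them passed the filter through crowns alone. Towards leaves stood FvH4_3g26010 (25.9-fold, past the filter through leaves alone), FvH4_6g49360 (13.1-fold, edgeR FDR = 6.63e-06) and FvH4_3g28370 (7.77-fold, FDR = 0.00325). The size for FvH4_3g28370 came from leaf replicate 1, at a CPM of 144 against 18.5 and 18.0 in the others. Its edgeR log2 difference of -3.66 was -1.91 without that library (FDR = 1.10e-06), and that of FvH4_3g26010 went from -5.36 to -4.65.

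In ‘NCGR1363’ at 0 h the balance lay towards leaves. Of 89 genes that passed the filter, 17 were higher in crowns (19.1%, against 32.6% of all genes tested) and 38 in leaves (42.7%, against 33.1%). The 804 cold-induced genes had 24.97% and 44.7%. Through the higher tissue alone passed 5 of the 17 and 7 of the 38. Among them were FvH4_6g21250, at 6.46 to 10.5 in crowns with 1 count in leaves, FvH4_3g03630, 22.0-fold higher in crowns, and FvH4_7g29230, 47.6-fold higher in leaves on 4 counts in crowns. FvH4_1g00710 was 16.2-fold higher in crowns (edgeR FDR = 1.06e-05). FvH4_6g49360 had a CPM of 1.60 to 2.47 in crowns and of 40.4 to 107 in leaves (43.7-fold, edgeR FDR = 3.00e-05), and FvH4_7g30640 was 16.6-fold higher in leaves (FDR = 1.30e-05).

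At 42 d all 100 genes passed the filter, as the CPM minimum of the selection required in ‘Alta’. None of those called in ‘Alta’ passed through 1 tissue alone. In ‘Alta’, 35 were higher in crowns, against 21% of all genes tested and 32.7% of the cold-induced genes, and 17 in leaves, against 23.8% and 18.3%. FvH4_2g21430 was 6.998-fold higher in crowns (edgeR FDR = 0.0481), FvH4_2g16190 6.83-fold (FDR = 0.0181) and FvH4_6g21250 6.01-fold (FDR = 0.00495). FvH4_2g21430 was not called when ‘Alta’ crown replicate 1, crown replicate 2 or leaf replicate 2 was left out (FDR from 0.0765 to 0.182), and its edgeR log2 difference of 2.74 was 3.48 without leaf replicate 3. FvH4_2g16190 was not called without crown replicate 2 (edgeR log2 difference 2.07 in place of 2.67, FDR = 0.0996) or leaf replicate 1 (FDR = 0.0574). FvH4_3g08940, with a CPM of 3441 to 4772 in leaves and 121 and 173 in crowns, was 29.1-fold higher in leaves (edgeR FDR = 0.000144). FvH4_7g30870 was 13.2-fold (FDR = 0.000420) and FvH4_3g26010 9.96-fold higher in leaves (FDR = 0.00978), the latter not called without crown replicate 2 (FDR = 0.0743). Leaving out ‘Alta’ crown replicate 1 or leaf replicate 2 left 10 genes called for leaves in each case. With a replicate block more genes were called for leaves than the 17 here, and its counts are given at the end. When the library that stood apart was added, edgeR called 0 of the 100 genes and 1 of all genes, and 13 of the 100 had an unadjusted p under 0.05. No other tool was run with that library.

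In ‘NCGR1363’ at 42 d, 16 genes were higher in crowns (27.1% of all genes tested) and 31 in leaves (28.4%), against 22.6% and 33.6% of the cold-induced genes. Through the higher tissue alone passed 2 of the 16 and 3 of the 31, against 20.4% and 10.3% of all genes called. FvH4_2g21430 was 9.70-fold higher in crowns (edgeR FDR = 0.000184), FvH4_3g22760 7.12-fold (FDR = 0.000476) and FvH4_1g00710 7.33-fold (FDR = 0.00461). FvH4_1g13550 had 2 counts in crowns and a CPM of 0.999 to 14.5 in leaves, a ratio of 213 with an exact 95% interval of 55.3 to 1667, and FvH4_1g02870, on 7 counts in crowns, was 97.7-fold higher in leaves. Both passed the filter through leaves alone. The edgeR log2 difference of FvH4_1g02870 was -6.97, and -7.67 without crown replicate 2. FvH4_6g49360 was 58.5-fold higher in leaves (edgeR FDR = 0.000105). These counts come from a fit with no replicate block, and those with the block are given at the end. The counts also depended on single libraries. Without crown replicate 3, 29 genes were called in all, against 47. Without leaf replicate 1, 50 genes were higher in leaves, and without crown replicates 1 and 3 in turn, 20 and 19. Without leaf replicate 2, 26 genes were higher in crowns, without leaf replicate 3, 9, and without crown replicate 2 or 3, 10 each time.

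**Figure D5:**
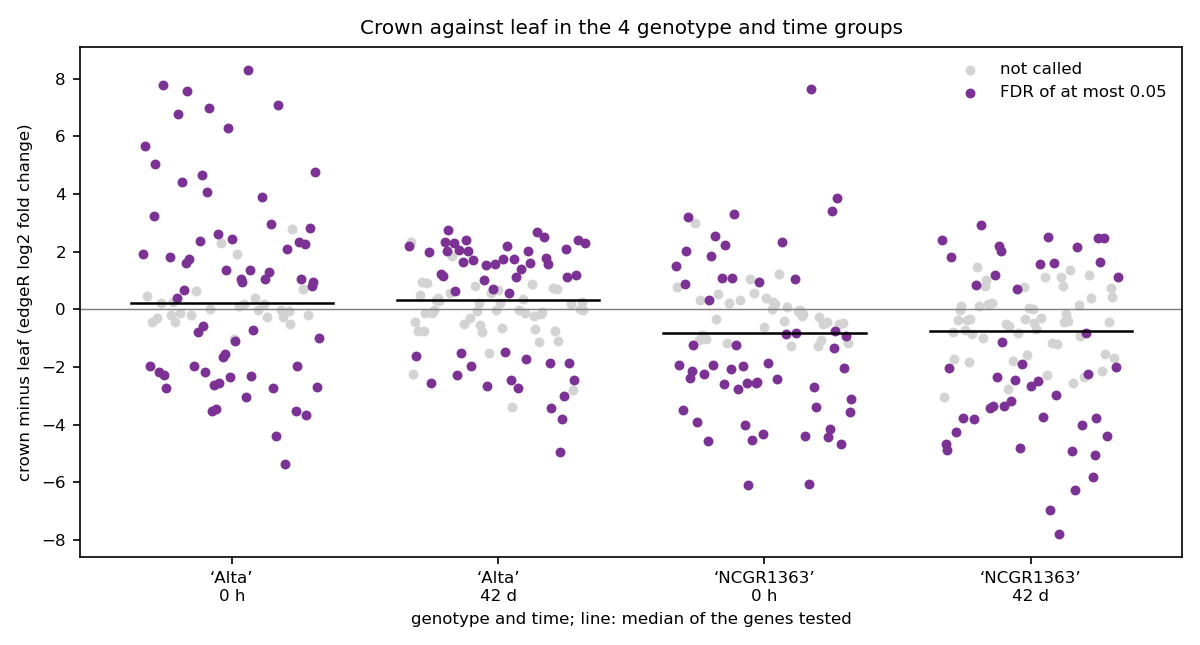
Crown minus leaf difference (edgeR log2 fold change, y axis) of the genes of the set that passed the filter, in ‘Alta’ and ‘NCGR1363’ at 0 h and 42 d, with called genes in purple and the median as a line. The medians are 0.23 and 0.31 in ‘Alta’ and -0.81 and -0.74 in ‘NCGR1363’, and the fitted values of genes without counts in a tissue are no estimate of a fold.

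In all 4 comparisons 86 of the 100 genes passed the filter. Of these, 8 were called for crowns each time (11.7% over all genes tested in the 4), among them FvH4_2g21430, FvH4_5g03560, FvH4_1g00710 and FvH4_6g21250, and 5 for leaves (16.1%), among them FvH4_7g30870 and FvH4_7g19720. FvH4_6g21250 passed the filter through crowns alone in each comparison except ‘Alta’ at 42 d, so elsewhere it had to differ. At 0 h, of 86 genes tested in both accessions, 36 were called in the same direction (41.9%, against 48% of all genes) and 3 in opposite directions (5.81%). At 42 d 29 of 100 were called in the same direction (35.8%) and 1 in opposite directions (0.45%). Of the 38 genes higher in ‘Alta’ crowns at 0 h, 24 were also called for crowns at 42 d (63.2%, against 47.6% of all such genes), and of the 27 higher in leaves, 8 were also called for leaves (29.6%, against 53.8%). These shares were not tested against each other. In ‘Alta’ the crown minus leaf difference moves from 0 h to 42 d with the crown and leaf changes. The selection used both changes, so nothing is read from how many calls lasted. FvH4_1g23740 was called for leaves at 0 h and for crowns at 42 d in both accessions. Its CPM in ‘Alta’ was 4.48 to 5.74 in crowns and 5.01 to 7.58 in leaves at 0 h, and 273 and 213 in crowns and 37.5 to 54.7 in leaves at 42 d. The ‘Alta’ libraries at 0 h thus overlapped in CPM, and the edgeR log2 difference there, -0.98, includes the TMM shift of -0.68. Its CPM in ‘NCGR1363’ was 2.57 to 4.87 in crowns and 17.9 to 24.6 in leaves at 0 h, and 16.5 to 19.8 and 4.71 to 9.46 at 42 d.

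By their IDs 16 of the 100 genes lay in 7 runs of neighbours no more than 5 places apart, and no share over other genes is given. The 3 genes FvH4_6g39840, FvH4_6g39845 and FvH4_6g39870 each had a coding sequence of 1467 bases, and FvH4_4g02981 and FvH4_4g02990 had 2217 and 2220. FvH4_6g39845 and FvH4_6g39870 were at a CPM of 7.32 to 33.2 and of 9.20 to 53.0 in ‘Alta’ leaves at 42 d. How the counting split reads between such neighbours was not tested. FvH4_1g00330, FvH4_1g00340 and FvH4_1g00345 formed another run, and the 4 genes between the last pair changed by less than 1 in ‘Alta’ crowns. In ‘Alta’ leaves FvH4_1g00343 changed by -2.91, FvH4_1g00341 by 1.05, FvH4_1g00342 by -0.52 and FvH4_1g00344 by -0.61. The pairs of FvH4_5g37590 and FvH4_5g37600, and of FvH4_7g27800 and FvH4_7g27810, and the pairs from FvH4_3g08920 and FvH4_7g13060 completed the 7. Over the chromosomes, 16, 10, 15, 13, 12, 20 and 14 of the 100 genes lay on chromosomes 1 to 7. For the cold-induced genes the shares were 11.1%, 17.4%, 14.3%, 12.7%, 13.7%, 19.0% and 11.8% in that order. For all genes of the gene table they were 11.1%, 14.3%, 16.4%, 13.9%, 13.9%, 19.0% and 11.2%. The median coding length of the leading isoform was 1182 bases, against 1320 for the cold-induced genes and 1164 for all genes tested.

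A single isoform was annotated for 66 of the 100 genes, against 48.0% of the cold-induced genes and 52.8% of all genes tested. Of the 34 others, 32 had enough counts to compare the share of the leading isoform between the accessions, with at least 20 counts in at least 3 libraries of each. The shares did not overlap for 1 gene, FvH4_3g03410, against 1.5% of all genes compared. Its isoform t5 held 79.3% to 100% of the counts in 10 ‘Alta’ libraries and 37.4% to 69.8% in 12 ‘NCGR1363’ libraries. The remaining 31 overlapped, among them FvH4_2g21430, whose isoform t6 had a median share of 98.2% in ‘Alta’ and 48.5% in ‘NCGR1363’.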

How the data were processed

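RNA from crowns and leaves of ‘Alta’ and ‘NCGR1363’ at 0 h and 42 d was sequenced in 24 libraries. The authors deposited expected counts per gene and per isoform, which come from trimmed reads aligned to the predicted transcripts of the genome annotation with Bowtie2 and RSEM, as named in the submitters' processing notes. The tables had no normalization, and edgeR is named in the same notes. The versions of Bowtie2 and RSEM are not given in the sources used here. Near-identical genes share reads, which RSEM divides between them. Where a genotype field of ‘NCGR1363’ counted upward through the samples, the titles gave the group.

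Expected counts were rounded to whole numbers. CPM used the column totals, and a pseudocount of 0.5 was added before log2. Crowns and leaves were compared with edgeR 4.0.16 (R 4.3.3; quasi-likelihood test, TMM, Benjamini-Hochberg adjustment) within each accession and time, over genes with a CPM of 0.5 or more in at least 2 libraries, and called at an FDR of 0.05. Exact intervals are at the 95% level, and the floor is 3 counts per library. The calls were tested on simulated data. DESeq2 1.42.0, size factors, no filter, other pseudocounts, a replicate block and leaving out each library were tried. Deviations of same-numbered crown and leaf libraries from their group means correlated at 0.109, 0.375 and 0.202 in ‘NCGR1363’ at 42 d. In ‘Alta’ at 42 d they correlated at 0.217 and 0.198, and at 0 h at -0.138 to 0.107 over both accessions. The labels give no reason for a pairing. All counts and FDR values in the Results come from fits without a replicate block, which was tried as an alternative only.

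The 100 genes and the gene lists were chosen with earlier results of these data known. Named were the 20 genes with the largest value of the selection, those described in the study's interval list, the 3 called genes with the largest difference in each direction of each tissue test, and the genes next to the limit. Others are said to have been chosen after their values were seen, and those given as examples of a count or of a run of neighbours were chosen so too.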

Additional observations from a re-analysis of the deposited data

Results flagged for a closer look

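For 3 of the 100 genes every ‘Alta’ library used at 42 d lay above every ‘Alta’ library at 0 h, and every ‘NCGR1363’ library at 42 d below every one at 0 h, in both tissues. The ‘Alta’ crown library left out by the selection was not counted. The difference between the accessions was not tested here, because the selection used it. Among all genes tested, 0.111% had this order of libraries. FvH4_5g35401 changed by 2.87 in ‘Alta’ crowns and -1.09 in ‘NCGR1363’ crowns, and by 4.37 and -2.02 in leaves. FvH4_3g03410 changed by 2.07 and -0.30 in crowns and by 2.93 and -0.95 in leaves, as log2 differences of means. FvH4_7g19720, which was called for leaves in all 4 tissue comparisons, changed by 1.27 and -0.62 in crowns and by 1.63 and -2.01 in leaves.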

How the results depend on the processing

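With replicate 3 of the ‘Alta’ crowns at 42 d, the library that stood apart, 59 of the 100 genes were taken by the rule, the median ‘Alta’ crown change was 2.07, every ‘Alta’ crown library at 42 d was above every ‘NCGR1363’ one for 13 genes, and 0 of the 100 genes and 1 of all genes were called between ‘Alta’ tissues at 42 d (against 52 and 8324, a setting added after seeing the data). A pseudocount of 0.1 gave a median ‘Alta’ leaf change of 4.60. Leaving out single libraries gave 29 to 64 called genes between ‘NCGR1363’ tissues at 42 d, 39 to 55 between ‘Alta’ tissues at 42 d, and 84 to 100 genes shared with the selection. With the replicate block the called genes were 58 against 65 in ‘Alta’ at 0 h, and 73 against 52 at 42 d (30 against 17 towards leaves). In ‘NCGR1363’ they were 54 against 55 at 0 h and 42 against 47 at 42 d. The block ended no call of a named gene. Of 240 values of the 24 named tissue differences, 227 kept their call, 13 lost it, 6 of them with that library, and 0 reversed. FvH4_2g21430 in ‘Alta’ at 42 d also lost it under DESeq2 (adjusted p = 0.0533). Calls of the genotype by cold interaction, planned as a description, are not given, since the genes were ranked on that contrast. The test of ‘NCGR1363’ tissues at 0 h with the added ‘Alta’ library was not run, since that library is in neither group. Depth limits the low end: 15 genes had 3 counts or fewer in every ‘Alta’ leaf library at 0 h, and 13 in every ‘NCGR1363’ leaf library at 0 h, so that their changes there are not precise.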
